A study of Mus musculus with 3 samples.

Results

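MTA to MTE are the subfamilies of the mouse transcript (MT) group of mammalian apparent LTR retrotransposons (MaLR). The 11 names were those in the deposited tables that start with MT and a capital letter from A to E, with MT2 names left out, of 18484 repeat names in all. All 11 had reads in all 3 libraries. Of these, 9 are long terminal repeats (LTRs), namely MTA_Mm, MTB_Mm, MTB, MTC, MTD, MTEa, MTEb, MTE2a and MTE2b. The other 2, MTC-int and MTE-int, are internal sequence, the part of the element that lies between its LTRs. The letters give their age, with MTA the youngest and MTE the oldest.

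RNA that came down with an antibody from mouse hippocampus was sequenced (RIP-seq), and reads were counted per repeat name. PS19 mice gave 1 library with an antibody to ZBP1 and 1 with an antibody to ZNA, and wild-type (WT) mice gave 1 library with the antibody to ZNA. All mice were 9 months old and of the C57BL/6 strain. The PS19 transgene expresses mutant human tau from the mouse prion promoter, and the mice develop tau pathology. ZNA stands for nucleic acid in the left-handed Z conformation, and ZBP1 is a sensor protein with domains that recognise it. The labels do not say whether a library pools several mice. No input library, control antibody or WT ZBP1 library was analysed here. With 1 library per group no value below has a replicate error and no p-value can be given. Every interval is a 95% interval for counting error, and reads without molecular identifiers are not independent molecules.

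MaLR elements code for no enzymes of their own and depend on related retroviruses of the ERVL type for copying. Most copies in the genome are solitary LTRs, left behind when recombination removed the internal part. An LTR holds a promoter, and MT LTRs are best known in the mouse oocyte, where they start transcription of many host genes. An MTC LTR, for example, is the promoter of the oocyte form of Dicer. In a tissue such as hippocampus, reads on an MT name can come from copies inside introns and untranslated regions of host transcripts as well as from the element's own promoter, and counts per name do not separate these. A name pools all its copies in the genome, and neither the number nor the length of the copies is given, so that reads on different names are not levels per copy.

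The libraries held 1425383 (PS19 ZBP1), 2918985 (PS19 ZNA) and 3234786 (WT ZNA) reads on repeat names, of which 74474, 308613 and 145372 lay outside the 2 ribosomal RNA (rRNA) names. These 2 names took 94.8%, 89.4% and 95.5% of the libraries. A value per library total therefore moves with the rRNA share, and values are also given per reads outside rRNA, as non-rRNA CPM. CPM are counts scaled to a common library total, and non-rRNA CPM are scaled to a common number of reads outside rRNA. A count of 0 would allow up to 3 reads, which is 2.10, 1.03 and 0.927 CPM in these libraries, and every member lay above it. The names are those of repeats, so the labelled tissue could not be checked against marker genes.

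MT names took a larger share of the non-ribosomal reads in the ZBP1 library than in either ZNA library. Their summed reads were 7293 (PS19 ZBP1), 23531 (PS19 ZNA) and 11053 (WT ZNA). Of the reads outside rRNA this was 9.79% (Wilson interval 9.58 to 10.01%), 7.62% (7.53 to 7.72%) and 7.60% (7.47 to 7.74%), so the ZNA libraries of the 2 genotypes overlapped within counting error and the ZBP1 library lay above both. All other LTR-element names together were also higher in the ZBP1 than in the PS19 ZNA library, 1.12-fold per reads outside rRNA. Of the reads on all LTR-element names, MT names took 25.3%, 22.8% and 23.9%. Per library total the order was different, with 0.512%, 0.806% and 0.342%, and the PS19 ZNA library was the highest.

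The youngest member, MTA_Mm, had 882 (PS19 ZBP1), 3368 (PS19 ZNA) and 1670 reads (WT ZNA). This was 619, 1154 and 516 CPM, and 11843, 10913 and 11488 non-rRNA CPM. MTA_Mm was thus highest in the PS19 ZNA library per library total but lowest there per reads outside rRNA.

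MTB_Mm had 315, 1063 and 438 reads in the same order of libraries, or 221, 364 and 135 CPM. MTB had 505, 1400 and 693 reads, or 354, 480 and 214 CPM. The ZBP1 library was the highest for both B names in non-rRNA CPM, with 4230, 3444 and 3013 for MTB_Mm and 6781, 4536 and 4767 for MTB.

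MTC, the subfamily that supplies the Dicer promoter in oocytes, had 1267, 4045 and 1813 reads. In non-rRNA CPM it stood at 17013, 13107 and 12472, highest in the ZBP1 library. Its internal part, MTC-int, had 20, 178 and 67 reads, or 14.0, 61.0 and 20.7 CPM. MTC-int went the other way from MTC, with 269 non-rRNA CPM in the ZBP1 library against 577 and 461 in the ZNA libraries.

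MTD had the most reads of any member in all 3 libraries, with 1974, 6490 and 3220. This was 1385, 2223 and 995 CPM, and 26506, 21030 and 22150 non-rRNA CPM.

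Of the oldest LTRs, MTEa had 592, 1789 and 784 reads and MTEb 355, 1021 and 451. MTE2a had 604, 1745 and 874 reads, and MTE2b 606, 1762 and 770. All 4 MTE LTR names were highest in the ZBP1 library in non-rRNA CPM, for example MTE2b with 8137, 5709 and 5297. MTE-int, the internal part of the oldest subfamily, had 173, 670 and 273 reads, which was 2323, 2171 and 1878 non-rRNA CPM.

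**Figure D1:**
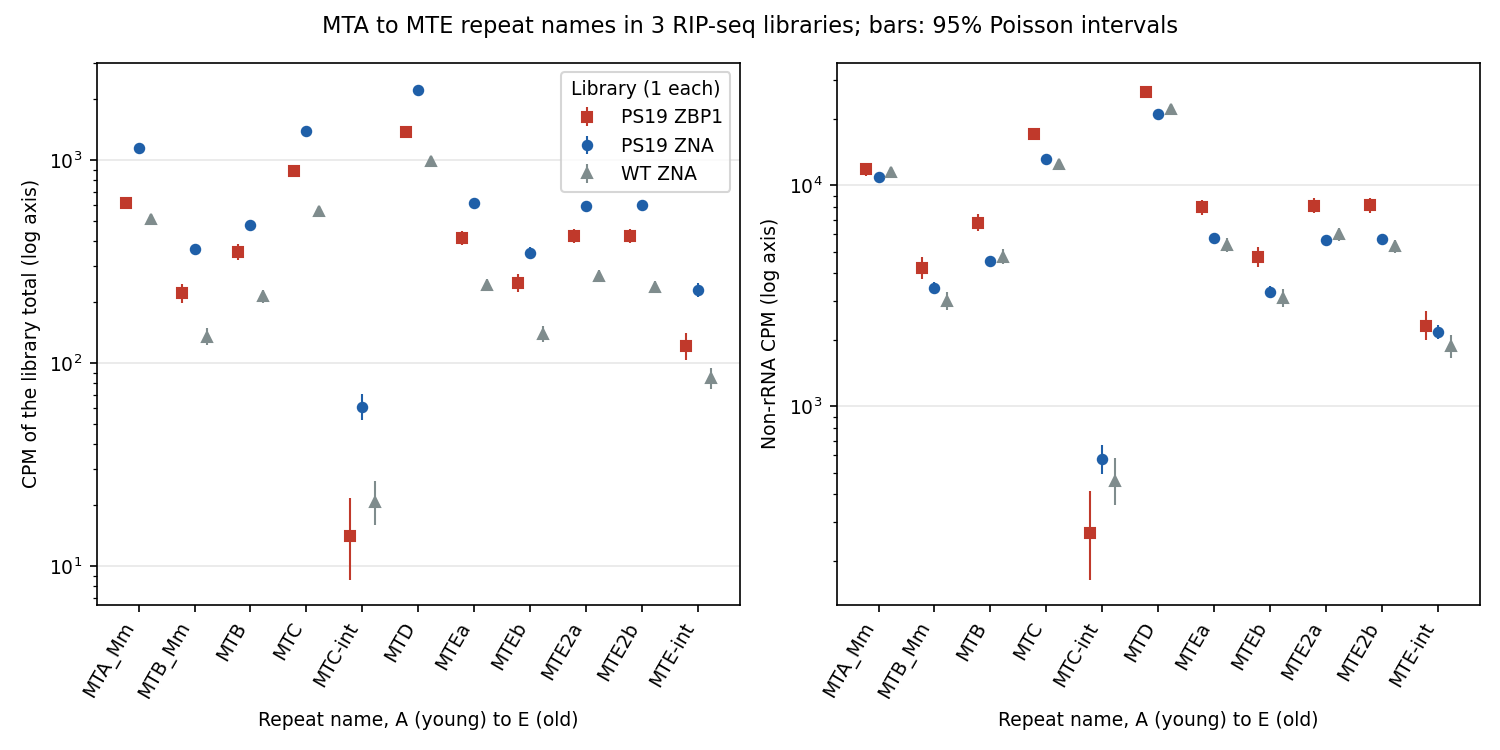
Reads of the 11 MT names in the 3 libraries, in CPM of the library total (left) and non-rRNA CPM (right), both on log axes, ordered from A (young) to E (old). Points are single libraries and bars are 95% Poisson intervals. On the left the PS19 ZNA library is the highest for every name, and on the right the ZBP1 library is the highest for every name except MTC-int, where it is the lowest with 20 reads.

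The first comparison asked how MT RNA in the ZNA pull-down differed between PS19 and WT. Per library total all 11 names were at least 2-fold higher in the PS19 library, where 74.3% of the 713 names compared were, and 0 were at least 2-fold lower, against 0.421% of all names. The log2 ratio of CPM with a pseudocount of 1 had a median of 1.32 over the 11 names and ran from 1.14 to 1.51. Over all names compared the median was 1.24, with an interquartile range of 0.99 to 1.45. The pseudocount draws names with few reads towards no change, and the 713 names were not matched to the members for reads. All members had 20.7 CPM or more in both libraries. The pooled MT reads were 2.36-fold higher (2.31 to 2.41). Per reads outside rRNA the pooled ratio was 1.003 (0.980 to 1.026), the median was 0.09 against 0.07 over all names, and 0 of 11 names were 2-fold higher or lower, against 3.51% and 2.66% of all names. The rRNA share, 89.4% in the PS19 and 95.5% in the WT library, moved with the difference per library total, and its part in it was not tested.

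Among themselves the MT names differed little between the genotypes, and not in the order of their age. MTE2a (2.21-fold), MTD (2.23-fold), MTA_Mm (2.23-fold) and MTB (2.24-fold) had the lowest ratios per library total. The other LTR names ran from 2.47-fold for MTC to 2.69-fold for MTB_Mm, and MTE-int and MTC-int reached 2.72-fold and 2.94-fold. Names of the same letter stood apart: MTB_Mm was higher than MTB by 0.26 on the log2 scale (exact interval 0.05 to 0.48), and MTE2b was higher than MTE2a, for which the MTE2a against MTE2b log2 ratio was -0.20 (-0.37 to -0.02). In the order of the ratios, none of the 10 neighbouring pairs differed beyond counting error, and 17 of all 55 pairs did, with no adjustment for the number of pairs. The standard deviation of the log2 ratio over the 9 LTR names was 0.11, against 0.06 from counting error alone.

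**Figure D2:**
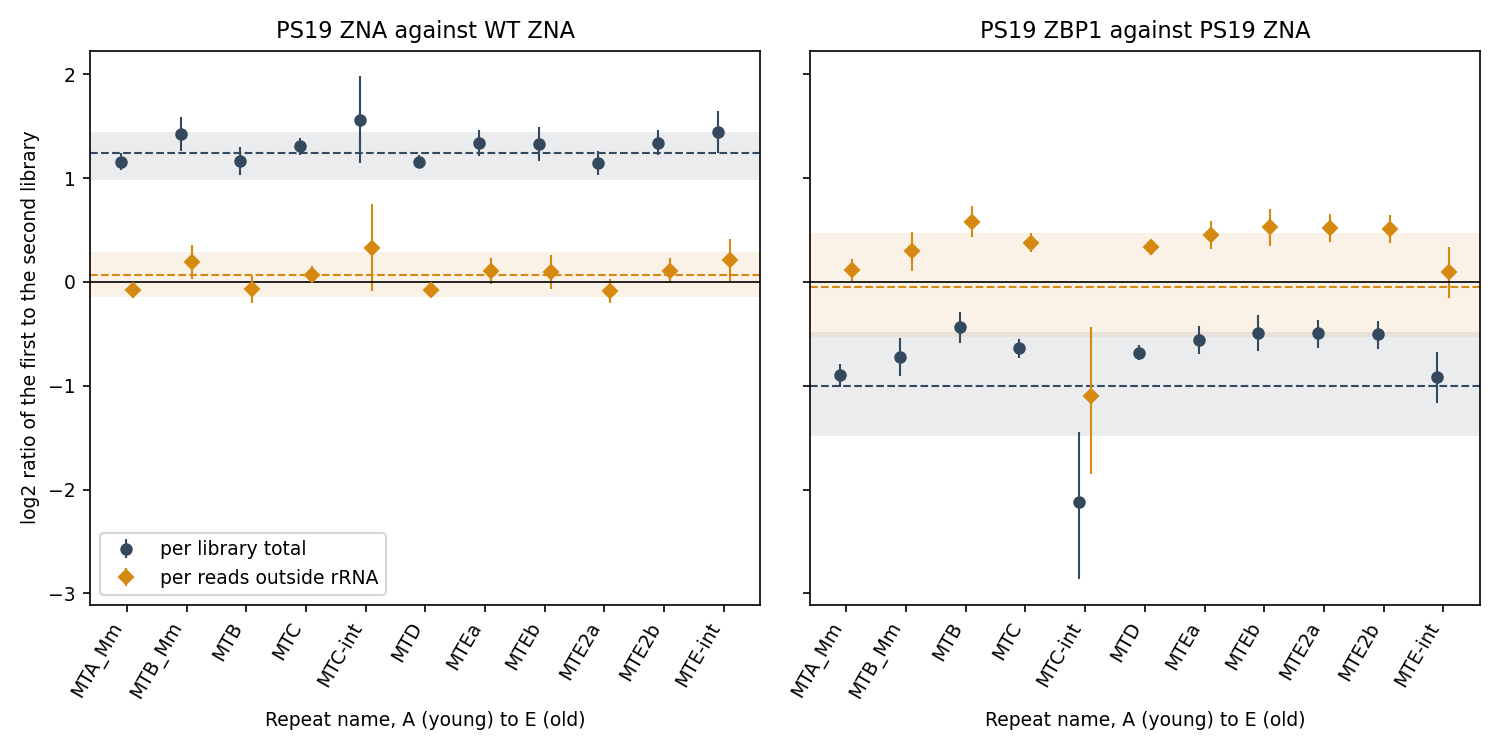
Log2 ratio of each MT name for PS19 ZNA against WT ZNA (left) and PS19 ZBP1 against PS19 ZNA (right), without a pseudocount, per library total (circles) and per reads outside rRNA (diamonds), with 95% exact intervals. Dashed lines and bands give the median and interquartile range over all 713 and 682 names compared, on the scale with a pseudocount of 1. On the left the members lie close to the median of all names, and on the right the LTR names lie above it and MTC-int lies below it.

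In PS19 mice the RNA that came with ZBP1 was compared with the RNA that came with ZNA. This comparison shares the PS19 ZNA library with the first. Per library total the MT LTRs were less reduced in the ZBP1 library than the typical repeat name. Per library total 1 of 11 names, MTC-int, was at least 2-fold lower, where 50.1% of the 682 names compared and 44.9% of the LTR-element names were. None was 2-fold higher, against 0.293% of all names. The median log2 ratio of the 11 names was -0.64, against -1.002 over all names and -0.94 over the other LTR-element names. It lay inside the interquartile range over all names, -1.49 to -0.48. Per reads outside rRNA the direction of that median turned: it was 0.38, against -0.05 over all names, and 10 of 11 names lay above 0, as did 323 of all 682. On that scale 0 of 11 were at least 2-fold higher and 1 was 2-fold lower, against 8.21% and 8.06% of all names. The pooled MT reads were 1.58-fold lower in the ZBP1 library per library total (1.53 to 1.62) and 1.28-fold higher per reads outside rRNA (1.25 to 1.32). The rRNA shares were 94.8% and 89.4%.

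Among the LTR names the youngest, MTA_Mm, had the lowest ZBP1 to ZNA ratio, though it did not differ from MTB_Mm beyond counting error. Per reads outside rRNA MTA_Mm was 1.09-fold higher than in the ZNA library (1.01 to 1.17). The MTB LTRs together were 1.38-fold higher (1.27 to 1.49), MTC 1.30-fold (1.22 to 1.38), MTD 1.26-fold (1.198 to 1.326) and the MTE LTRs 1.41-fold (1.35 to 1.49). The letters B to D thus did not step up in order of age, while A was the lowest and the intervals of B and E overlapped at the top. These values per reads outside rRNA change sign per library total, where every MT name was lower in the ZBP1 library, but the ratios between letters are the same on any scale.

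Set against the MTE LTRs, MTA_Mm was 1.30-fold lower with ZBP1 than with ZNA (exact interval 1.19 to 1.43). It was also lower against the MTB (1.27-fold), MTC (1.196-fold) and MTD LTRs (1.16-fold), and all of these intervals lay on the same side of no change. Of the MT LTR reads MTA_Mm took 12.4% with ZBP1 (11.7 to 13.2%), 14.8% with ZNA in PS19 (14.4 to 15.3%) and 15.6% with ZNA in WT (14.9 to 16.3%). The MTE LTRs took 30.4% (29.3 to 31.5%), 27.8% (27.3 to 28.4%) and 26.9% (26.04 to 27.7%). For both letters the ZBP1 interval overlapped neither ZNA interval, while the ZNA libraries of PS19 and WT overlapped each other. Between the genotypes MTA_Mm against the MTE LTRs differed by -0.12 on the log2 scale (-0.23 to -0.01) in the ZNA pull-down.

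MTB, an LTR name of the second youngest letter, had the highest ZBP1 to ZNA ratio of all members, 1.49-fold higher per reads outside rRNA, and the log2 ratio of MTB_Mm to MTB between the libraries was -0.28 (-0.52 to -0.05). Of the 8 pairs of MTA_Mm with another LTR name, 7 differed beyond counting error, the exception being MTB_Mm. Among the other LTR names 5 of 28 pairs did, with no adjustment for the number of pairs. MTA_Mm had the lowest ratio of these names, so more of its pairs would differ for that reason alone. Over the 9 LTR names the log2 ratios had a standard deviation of 0.15, against 0.07 from counting error, and over all 11 names it was 0.48, against 0.13.

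**Figure D3:**
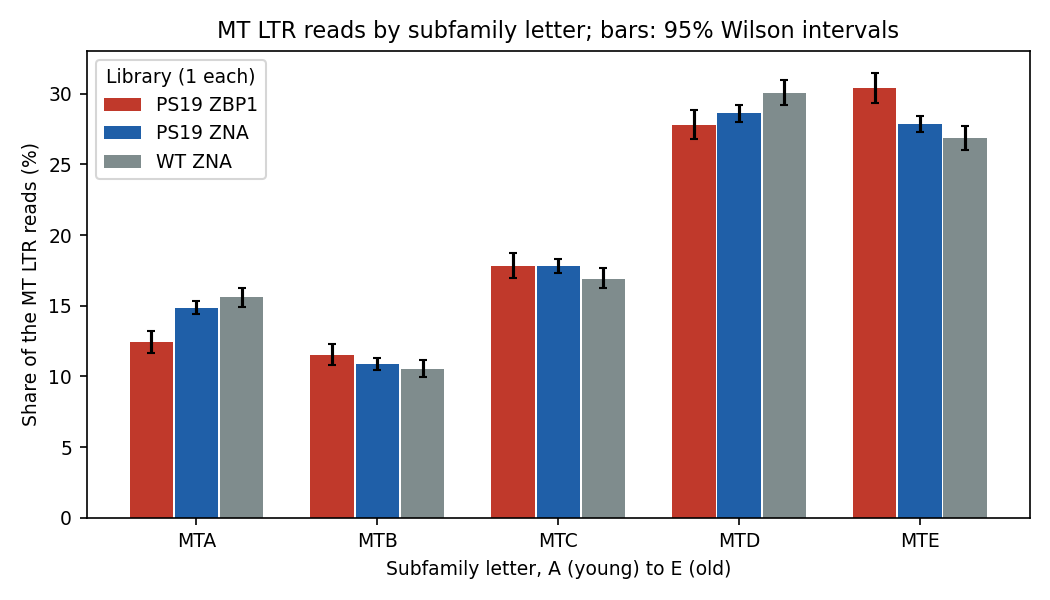
Share of the MT LTR reads taken by each letter in each library, in percent, with 95% Wilson intervals. MTA takes 12.4% in the ZBP1 library against 14.8% and 15.6% in the ZNA libraries of PS19 and WT, and MTE takes 30.4% there against 27.8% and 26.9%.

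The internal names were then set against the LTRs within each library, a measure that does not depend on how libraries are scaled. Internal MT reads were fewest, relative to LTR reads, in the ZBP1 library. There were 2.72 -int reads per 100 LTR reads with ZBP1 (2.34 to 3.14), 3.74 with ZNA in PS19 (3.49 to 4.004) and 3.17 with ZNA in WT (2.84 to 3.54). The ZBP1 and PS19 ZNA values did not overlap. The ZBP1 and WT ZNA values did.

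The difference was larger for MTC than for MTE. MTC-int had 1.58 reads per 100 MTC reads with ZBP1 (0.961 to 2.45), 4.40 with ZNA in PS19 (3.77 to 5.11) and 3.70 with ZNA in WT (2.85 to 4.72). The ZBP1 value lay below both ZNA values, whose intervals overlapped each other. The internal to LTR ratio of MTC was 2.79-fold lower with ZBP1 than with ZNA in PS19 (1.74 to 4.69), on 20 reads of MTC-int. Per library total MTC-int itself was 4.35-fold lower (2.73 to 7.29), at rank 40 from the lowest of all 682 names and rank 13 of the 394 LTR-element names. Per reads outside rRNA it was 2.15-fold lower (1.35 to 3.60), at rank 49 and rank 21. Its ratio, the lowest of the members, differed beyond counting error from that of each of the other 10, with no adjustment for the number of pairs. Of the 10 neighbouring pairs in the order of ratios only MTE-int and MTC-int did.

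MTE-int had 8.02 reads per 100 MTE LTR reads with ZBP1 (6.83 to 9.37), 10.6 with ZNA in PS19 (9.78 to 11.5) and 9.48 with ZNA in WT (8.34 to 10.7). Its ratio to the MTE LTRs was 1.32-fold lower with ZBP1 than with ZNA in PS19 (1.11 to 1.58). The log2 value of the MTC pair minus that of the MTE pair was -1.08 (Wald interval -1.79 to -0.36). With MTC-int left out, the -int against LTR log2 ratio between these libraries was -0.28 (-0.53 to -0.03), against -0.46 (-0.70 to -0.23) with both names.

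Both comparisons share the PS19 ZNA library, which had the highest pooled -int to LTR ratio of the 3. In the ZNA pull-down the -int against LTR ratio was 1.18-fold higher in PS19 than in WT (1.04 to 1.34). Taken within a letter, the MTC ratio was 1.19-fold (0.889 to 1.61) and the MTE ratio 1.12-fold higher (0.963 to 1.30), and both intervals included no change. MT-int, a general internal name that is no member by the letter rule, had 9, 43 and 20 reads, or 0.127, 0.190 and 0.187 per 100 MT LTR reads, with overlapping intervals.

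**Figure D4:**
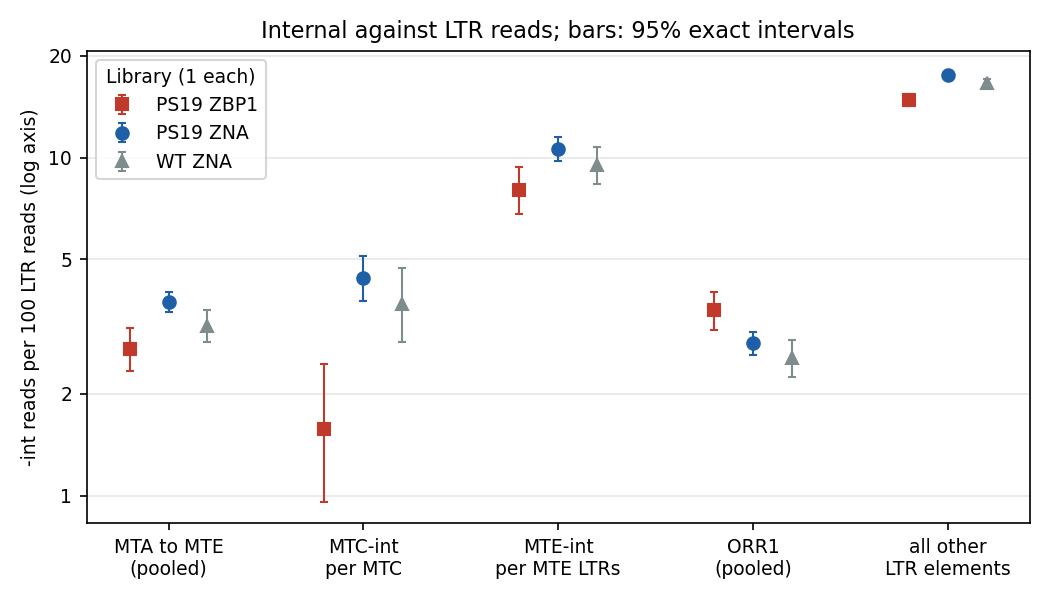
Internal (-int) reads per 100 LTR reads in each library, on a log axis with 95% exact intervals, for the pooled MT names, MTC, MTE, ORR1 and all other LTR-element names. MTC is at 1.58 in the ZBP1 library against 4.40 and 3.70 in the ZNA libraries, while pooled ORR1 is higher there, at 3.53 against 2.83 and 2.56. Without ORR1B1-int, the ORR1 log2 ratio of -int to LTR reads for PS19 ZBP1 against PS19 ZNA is -0.31 (-0.72 to 0.08).

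MT names were last set against their closest relatives. ORR1 is the other large rodent MaLR group (18 names), and MLT1 is an older mammalian MaLR group (34 names). Names of the MaLR groups MST and THE1 were looked for as well, and none was listed. MERVL with its MT2 LTRs is the ERVL retrovirus of the mouse (8 names). Per reads outside rRNA all of these groups were higher in the ZBP1 than in the PS19 ZNA library. ORR1 was 1.27-fold, MLT1 1.39-fold and MERVL with MT2 1.20-fold higher, against 1.28-fold for MT. Pooled MT reads were close to ORR1 in the ZBP1 against ZNA comparison, with a log2 ratio of MT to ORR1 of 0.01 (-0.04 to 0.07). The same value was -0.12 against MLT1 (-0.21 to -0.03), 0.20 against all 606 other LTR-element names (0.16 to 0.24) and 0.10 against MERVL and MT2 (-0.0025 to 0.20). The ZBP1 to ZNA ratio of pooled MT reads was thus lower than that of MLT1. It was higher than that of the other LTR-element names pooled, a pool that includes ORR1, MLT1, MERVL and MT2. Against that pool the value was 0.18 (0.13 to 0.22) for LTR names alone and -0.03 (-0.27 to 0.20) for -int names alone. The LTR names thus had a higher ratio than those of the pool. For the -int names, on 193 reads with ZBP1, the interval included both no change and the value of the LTR names. Between PS19 and WT the log2 ratio of MT reads was -0.10 against ORR1 (-0.15 to -0.06), -0.13 against MERVL and MT2 (-0.21 to -0.04) and 0.10 against MLT1 (0.03 to 0.18).

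ORR1 was looked up for the same contrast of young and old LTRs after the MT values were known, and ORR1A was not compared with ORR1B to ORR1D. ORR1A LTRs set against the ORR1E to ORR1G LTRs had a log2 ratio of -0.54 (-0.65 to -0.43) between ZBP1 and ZNA, against -0.38 (-0.51 to -0.25) for MTA_Mm against the MTE LTRs, and the difference of 0.16 had an interval of -0.01 to 0.32. Between PS19 and WT the 2 groups differed: the value was 0.20 (0.10 to 0.29) for ORR1 and -0.12 for MT, a difference of -0.32 (-0.46 to -0.18).

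The internal to LTR ratio was also lower in the ZBP1 library for all other LTR-element names together, with a log2 value of -0.25 (-0.31 to -0.18), and the MT value differed from it by -0.21 (-0.45 to 0.02). For ORR1 the value was 0.32 (0.10 to 0.54), and MT differed from ORR1 by -0.78 (-1.10 to -0.47). That difference rested on 1 name of ORR1: ORR1B1-int had 179, 371 and 167 reads, and without it the difference was -0.15 (-0.59 to 0.30). Set against the ORR1 LTRs, ORR1B1-int had a log2 value of 0.66 (0.39 to 0.93). The other ORR1 -int names together had -0.31 (-0.72 to 0.08), the same sign as MT. MT differed from MERVL and MT2 by -0.33 (-0.63 to -0.03), which became -0.15 (-0.46 to 0.16) without MTC-int.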

How the data were processed

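The deposited tables hold raw read counts, 1 whole number for each repeat name and library, as the values show. Trim Galore 0.6.5, STAR 2.5.3a, featureCounts 2.0.4 and the build mm39 are named in the submitters' processing notes. The repeat annotation, the strand setting and the handling of multi-mapping reads are not given in the sources used here. Such choices can move reads between names of similar sequence, and their effect on the values here was not tested.

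Counts were scaled to the library total over all names, to the reads outside the rRNA names LSU-rRNA_Hsa and SSU-rRNA_Hsa, or by TMM. A name was compared where the 2 libraries averaged 1 CPM or more and together held 20 reads or more, on log2(CPM + 1), and a 2-fold limit defined a call. All 11 members passed. Other scalings kept the mean depth of the pair, so that the pseudocount kept its weight. With 1 library per group edgeR's quasi-likelihood model cannot be fitted. Intervals of ratios are exact conditional, those of shares Wilson, and those of differences between log2 odds ratios Wald. Repeat groups were set by patterns in the names. Every name that met the letter rule (MT and a capital A to E) had reads and is given values. The members and lists were chosen with earlier results of these data known.

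On simulated counts 200 names were changed 3-fold. The 2-fold call recovered 94.1% of the 187 changed names tested for PS19 against WT (of 692 names). For ZBP1 against ZNA it recovered 94.2% of 190 (of 682). Of the unchanged names, 2 of 505 and 4 of 492 were called. Apart from the changed names, both simulated libraries of a pair had the same composition, with counting error only. The simulation held no difference in rRNA share, so it does not show how the call performs on the real libraries. TMM factors came from edgeR 4.0.16 in R 4.3.3, and all else was computed in Python 3.11.15 with scipy 1.17.1, pandas 2.3.3 and numpy 2.4.6. The alternatives changed the pseudocount (0.1 or 5), the filter (none, or 10 CPM on average) and the fold limit (1.5 or 4), took medians over names, or left out the name with the most reads.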

Additional observations from a re-analysis of the deposited data

How the results depend on the processing

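Scaling moved the values per library most. The rRNA names took from 89.4% (PS19 ZNA) to 95.5% (WT ZNA) of the library totals, and their part in these changes was not tested. For PS19 against WT the 11 names at least 2-fold higher became 0 per reads outside rRNA and 0 under TMM, the median went from 1.32 to 0.092 and 0.034, and the pooled log2 ratio from 1.24 to 0.0041 and -0.054, a change of sign under TMM. For ZBP1 against ZNA the median went from -0.64 to 0.38 and 0.22 and the pooled log2 ratio from -0.66 to 0.36 and 0.20, all changes of sign. Under TMM 8 of 11 names lay above 0 in that comparison, against 10 per reads outside rRNA. MTA_Mm and MTE-int changed direction, to 0.974-fold (0.903 to 1.049) and 0.960-fold (0.808 to 1.136), and both intervals included no change. At 4-fold, 0 of 11 names were higher in PS19 than in WT, against 3.79% of all names. At 1.5-fold, 6 of 11 were lower in ZBP1 than in ZNA, against 70.5% of all names. Pseudocounts and filters left every count and median within its limits.

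Odds ratios of pooled reads do not depend on scaling. Differences of medians over names were taken on log2(CPM + 1) per library total and can move with it. MT against other LTR-element names, as such a difference of medians, was 0.076 for PS19 against WT (-0.09 from pooled reads, a change of sign) and 0.30 for ZBP1 against ZNA (0.20). For PS19 against WT the MT median was below that of the other LTR-element names per reads outside rRNA (0.092 against 0.099) and under TMM (0.034 against 0.048). The change of sign was thus seen per library total only. The -int against LTR value for ZBP1 against ZNA was -1.49 without MTE-int and MTD, which have the most reads, and -0.92 as a difference of medians; the first rests on the 20 reads of MTC-int. Without ORR1B1-int, the difference of MT from ORR1 in that ratio was -0.15 for ZBP1 against ZNA and -0.19 for PS19 against WT (0.09 with it). Settings that left out ORR1B1-int or MTC-int, added MT-int, or kept letters C and E or LTR names only were chosen after seeing the data. Leaving the name with the most reads out of MTA was not run, since MTA has 1 name. No paired analysis was possible because each group has 1 library. Depth limits MTC-int in the ZBP1 library most (20 reads at 0.702 CPM each).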
